A study of Homo sapiens with 6 samples.

Results

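To find out how the interferon-stimulated genes behaved when interleukin-1β (IL-1β) was silenced, 37 genes that type I interferon is known to induce were followed by name on the arrays. Their probe sets were those for which the platform annotation lists a single gene symbol, and each gene was represented by its probe set (short probes read together for 1 transcript) with the highest mean signal over the 6 arrays. STAT2 was not analysed here. The other 36 genes were measured by 62 of the 54675 probe sets, among 19775 named genes on the array. All 36 had a representative probe set above the filter on low signals, a signal above 18.6 on at least 3 of the 6 arrays, and this was also true of 61 of their 62 probe sets.

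The samples were cells of Cal27, a line derived from a human squamous cell carcinoma of the tongue, grown alone in culture and profiled on Affymetrix Human Genome U133 Plus 2.0 arrays. One group carried a lentiviral short hairpin RNA against IL-1β (LV-shIL-1β) and the other a scrambled hairpin delivered the same way (LV-shNC), with 3 arrays each. Both groups therefore held a lentiviral insertion and a hairpin, and both had passed through 2 weeks of selection in puromycin (2 µg/mL), so no untransduced cells were compared. A single hairpin sequence against IL-1β was used, in stably selected cells, and separate cultures for the 3 arrays of each group are not stated. Each p-value therefore reflects only the scatter among these arrays, which could be technical.

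Interferons are secreted proteins that cells release when they sense foreign nucleic acid. Type I interferon binds the receptor chains IFNAR1 and IFNAR2, which activates the kinases JAK1 and TYK2, and a complex that contains IRF9 then binds the interferon-stimulated response element in front of its target genes. The targets encode proteins that bind or degrade viral RNA, hold back virus entry or release, attach the ubiquitin-like protein ISG15 to other proteins, and feed back on the pathway itself. Many carcinoma lines express a part of this set without added interferon.

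Sequence in front of the genes is shown first, because the response element defines the pathway and the genes that changed could be set beside those that did not. Windows run from 160 bases before to 10 bases after an annotated start, 170 bases in all, in the gene's own direction, and come from RefSeq promoters of assembly GRCh38.p14. Capitals mark the core of the response element, which was searched on both strands as GAAA, any 2 bases, then GAAA. The 3 IFIT genes stand for changed genes with the core, and XAF1 and HERC6 for changed genes without it. HERC5 and ISG15 stand for genes with the core that did not pass the test. All 7 genes lie on the plus strand, at chr10:89392463-89392632 (IFIT1), chr10:89327837-89328006 (the upstream of the starts of IFIT3), chr10:89414408-89414577 (IFIT5), chr17:6755886-6756055 (the downstream start of XAF1), chr4:88378692-88378861 (HERC6), chr4:88456959-88457128 (HERC5) and chr1:1013337-1013506 (ISG15).
IFIT1: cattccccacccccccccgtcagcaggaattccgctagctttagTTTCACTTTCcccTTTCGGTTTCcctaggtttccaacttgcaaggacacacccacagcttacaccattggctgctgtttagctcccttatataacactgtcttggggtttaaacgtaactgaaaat
IFIT3: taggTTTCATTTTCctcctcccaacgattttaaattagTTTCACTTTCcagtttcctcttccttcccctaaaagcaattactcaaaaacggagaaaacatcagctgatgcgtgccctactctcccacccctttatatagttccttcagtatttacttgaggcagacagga
IFIT5: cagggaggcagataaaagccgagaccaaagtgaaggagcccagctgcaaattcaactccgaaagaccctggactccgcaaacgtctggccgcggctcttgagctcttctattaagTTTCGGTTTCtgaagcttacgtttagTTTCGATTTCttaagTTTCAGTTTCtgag
XAF1: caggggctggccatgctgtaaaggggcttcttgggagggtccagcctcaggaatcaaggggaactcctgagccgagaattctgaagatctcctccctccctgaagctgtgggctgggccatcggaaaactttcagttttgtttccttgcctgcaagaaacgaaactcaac
HERC6: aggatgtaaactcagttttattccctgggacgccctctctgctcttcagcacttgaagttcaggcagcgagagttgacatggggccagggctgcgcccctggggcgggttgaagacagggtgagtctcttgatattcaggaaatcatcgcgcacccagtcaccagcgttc
HERC5: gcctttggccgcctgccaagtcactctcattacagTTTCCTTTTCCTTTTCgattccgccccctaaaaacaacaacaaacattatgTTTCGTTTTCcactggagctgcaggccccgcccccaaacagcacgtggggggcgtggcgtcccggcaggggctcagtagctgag
ISG15: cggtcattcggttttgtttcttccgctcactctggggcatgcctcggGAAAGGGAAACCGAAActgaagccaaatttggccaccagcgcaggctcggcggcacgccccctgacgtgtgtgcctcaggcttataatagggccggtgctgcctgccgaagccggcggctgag

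IFIT1 held the core at 2 places, with first bases 116 and 103 bases before the start (positions -116 and -103), and IFIT5 held it at 3, at -45, -19 and -4. In front of the upstream start of IFIT3 the core began at -156 and -122, and in front of the downstream start at -94 and -51. HERC5 held it at -125, -119 and -74, and ISG15 at -113 and -107, each with an overlapping pair. Promoters in the RefSeq table span 250 bases before to 50 after the start, and 31 of the 37 genes matched an entry. IFIT2, MX2, OAS2, OASL, IRF7 and USP18 did not. The core was found in 21 of the 31 genes (67.7%), against 3.57% of all 35116 promoters and 4.38% of all 27305 genes. A longer form, with a C after the second GAAA, was found in 18 of the 31 genes, against 0.795% of promoters and 0.952% of all genes. The gamma-activated site, TTCNNNGAA, a second element of interferon-responsive promoters, was found in 9 of the 31 genes (29.0%), against 7.66% of promoters and 9.38% of all genes.

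Genes with and without the response element were found both among those that rose and among those that did not pass the test. Of the 9 genes called higher that had an entry, 5 held the core, and of the 21 measured genes that were not called, 16 did. The genes called higher without it were IRF9, OAS1, HERC6 and XAF1. With a spacing of 1 base instead of 2, a form added after the data were seen, OAS1, XAF1, CMPK2 and IFI35 also held a match, which brought the total with either spacing to 25 of 31 genes (80.6%), against 6.40% of promoters and 7.83% of all genes. With either spacing, 7 of the 9 genes called higher and 18 of the 21 not called held a match. These counts cover the whole promoters of the table, not only the printed windows. A match is a run of letters and was not tested as a binding site.

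The knockdown was present in every array. IL1B, the target of the hairpin, had signals of 2677, 2611 and 2494 in LV-shNC and of 1569, 1569 and 1596 in LV-shIL-1β, lower by limma at an adjusted p (Benjamini-Hochberg) of 2.46e-05, with a log2 fold change of -0.72 ± 0.04 (SE). The silencing was thus partial. Array medians lay between 18.4 and 18.9, and arrays correlated at 0.995 to 0.997 within groups and at 0.990 to 0.994 between them. Epithelial genes matched the label, with KRT5 and KRT14, keratins of basal squamous epithelium, at signals between 2862 and 7343, while the leukocyte gene PTPRC lay between 2.31 and 2.85. These cultures are measured in bulk, so a change in the number of cells that express a gene and a change in its RNA per cell cannot be told apart.

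All 36 genes had mean signals between 139 and 5077 in the control cells, far above the filter, and 11 of the 36 rose modestly when IL-1β was silenced, while none was called lower. The 11 were IRF9, IFIT1, IFIT2, IFIT3, IFIT5, IFIH1, OAS1, HERC6, USP18, ISG20 and XAF1, with log2 fold changes between 0.20 and 0.46 (median 0.31). They made up 30.6% of the genes, and for comparison 3.68% of all 27566 kept probe sets were called higher and 3.37% lower. For the other 25 genes the median log2 fold change was 0.04. Over all 36 genes it was 0.13, against 0.01 over all kept probe sets, and the genes ranged from -0.17 (BST2) to 0.46 (IFIT5). The log2 fold change was above 0 for 26 genes, or 72.2%, against 53.2% of all kept probe sets. At an unadjusted p under 0.05 limma gave 18 genes higher and 1 lower, and the methods' t-test gave 15 and 1, of which 0 passed adjustment. The shares of 3.68% and 3.37% are for adjusted p and are no baseline for these counts. The share of all kept probe sets at an unadjusted p under 0.05 was not counted.

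The arrays of the groups did not overlap for 19 of the 36 genes. In 18 of them, or 50%, all 3 LV-shIL-1β arrays lay above all 3 LV-shNC arrays, which was the case for 15.3% of all kept probe sets. In 1 gene, BST2, they lay below, as for 12.6% of all kept probe sets. Relative to the mean of the LV-shNC arrays, the median over the 36 genes on the log2 scale was -0.03, 0.02 and 0.01 in the 3 LV-shNC arrays and 0.12, 0.08 and 0.13 in the 3 LV-shIL-1β arrays. The median of all kept probe sets stayed between -0.01 and 0.03 on every array.

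**Figure D1:**
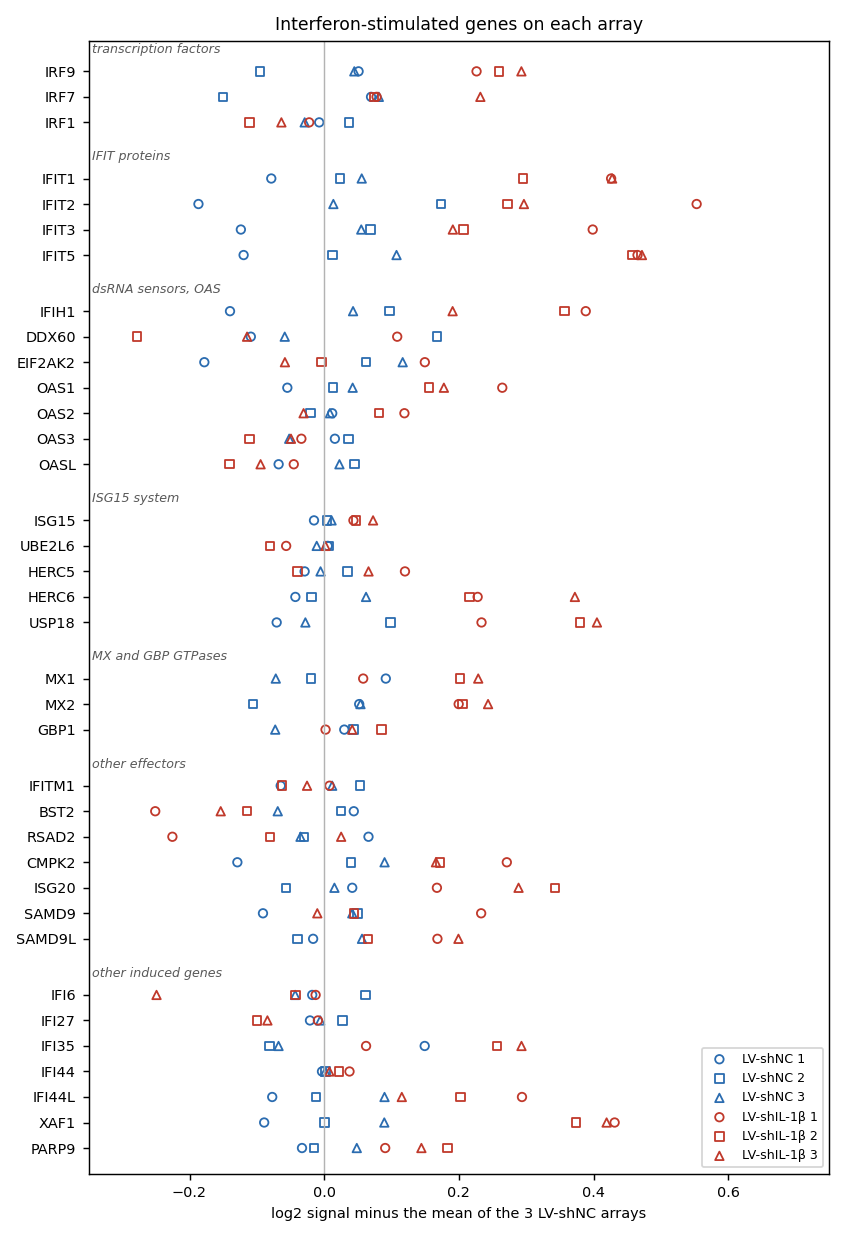
Log2 signal of each of the 36 interferon-stimulated genes on each array, minus the mean of the 3 LV-shNC arrays (horizontal axis), with genes in rows grouped by role. Blue symbols are LV-shNC and red symbols LV-shIL-1β, with circles, squares and triangles for arrays 1, 2 and 3. Red lies to the right of blue without overlap in 18 rows, including all 4 IFIT genes, and to the left in the BST2 row.

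Fewer genes were called when any 1 array was left out. This was also so for all kept probe sets, with 1943 called on all 6 arrays and 696 to 1808 without 1. The number called higher was 4, 5 and 3 when LV-shNC array 1, 2 or 3 was left out, and 8, 3 and 4 when LV-shIL-1β array 1, 2 or 3 was left out. IFIT1, IFIT5 and XAF1 were called in each of these 6 fits. The other 8 were called in at most 2 of them, and IFIT3 and OAS1 in 0, where the adjusted p from limma reached 0.104 and 0.0916. Every one of the 11 kept a log2 fold change above 0 in all 6 fits. Without the filter on low signals 6 genes passed (IRF9, IFIT1, IFIT5, HERC6, USP18 and XAF1), and after quantile normalization IFIT2 and IFIH1 did not.

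The IFIT proteins, which bind viral RNA that lacks the host's cap marks, were the role in which all members rose. IFIT1 had signals of 1105, 1186 and 1213 in LV-shNC and of 1568, 1432 and 1569 in LV-shIL-1β, with means of 1168 ± 56.1 and 1523 ± 79.1 (SD, n = 3). Every knockdown array was above every control array. On the log2 scale the fold change was 0.38 ± 0.05 (SE), or 1.30-fold, with a limma Benjamini-Hochberg adjusted p of 0.00265.

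IFIT5 had the largest log2 fold change of the 36 genes. Its signal was 295, 323 and 345 in LV-shNC, and 443, 440 and 445 in LV-shIL-1β, so that the knockdown arrays were nearly equal and the controls spread over a wider range. Its rise on the log2 scale was 0.46 ± 0.06 (SE, limma adjusted p = 0.00251), or 1.38-fold. Its other probe set went from 152 ± 6.20 to 200.4 ± 13.1 (SD, n = 3), a log2 fold change of 0.40 ± 0.07 (limma adjusted p = 0.00726).

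IFIT2 had signals of 407, 523 and 468 in LV-shNC and of 680, 560 and 569 in LV-shIL-1β. LV-shNC array 1 was the lowest and LV-shIL-1β array 1 the highest, and the groups did not overlap. A log2 fold change of 0.37 ± 0.10 (SE) passed narrowly, with a limma adjusted p of 0.0493, and it was called in 1 of the 6 fits without an array. The other IFIT2 probe set gave 0.39 ± 0.08 (limma adjusted p = 0.0158).

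For IFIT3, which binds IFIT1 and strengthens its grip on RNA, the signals were 1587, 1814 and 1796 in LV-shNC, and 2279, 1996 and 1974 in LV-shIL-1β. LV-shIL-1β array 1 again stood highest and LV-shNC array 1 lowest. The log2 fold change was 0.27 ± 0.07 (SE, limma adjusted p = 0.042). The second IFIT3 probe set was tighter, with 809, 798 and 814 against 1042, 957 and 1002, a log2 fold change of 0.31 ± 0.04 (limma adjusted p = 0.00357), and it was called in all 6 fits without an array.

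**Figure D2:**
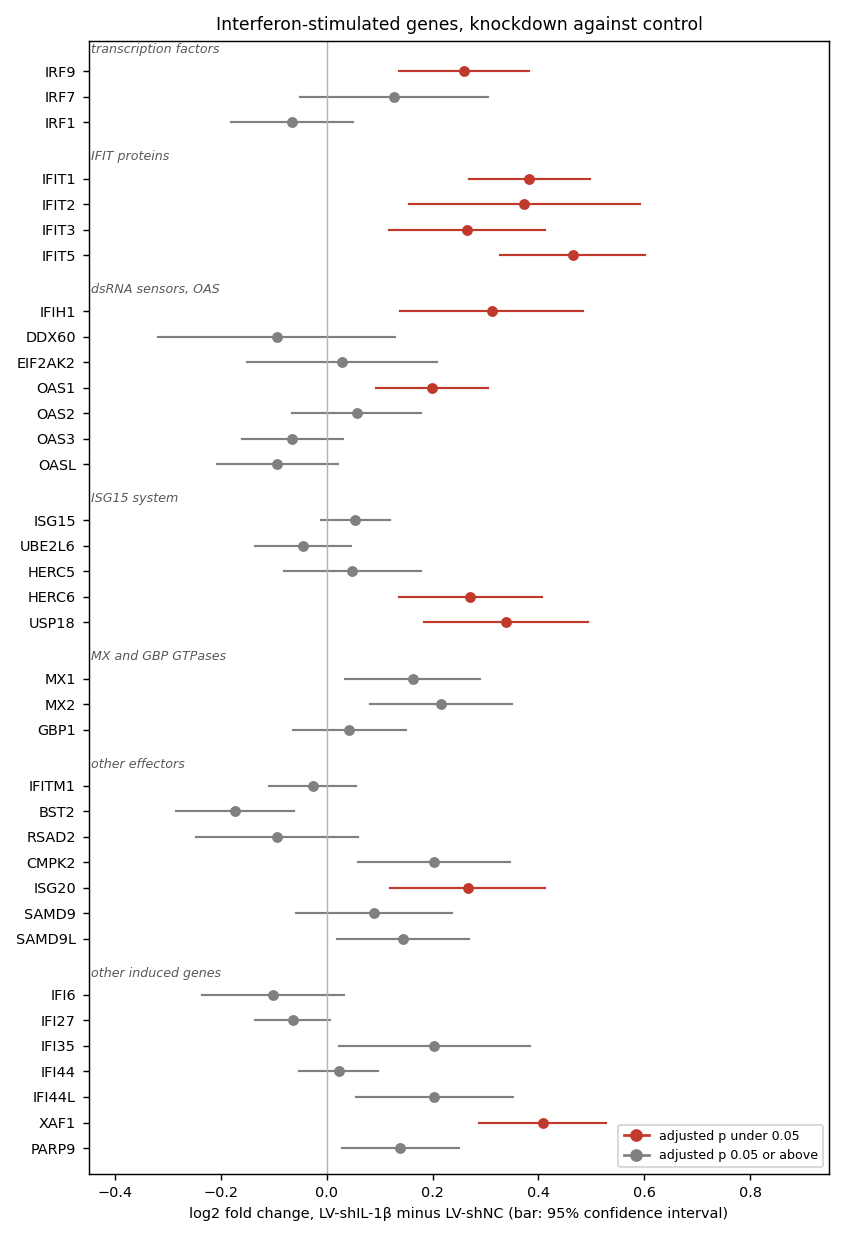
Log2 fold change of LV-shIL-1β minus LV-shNC for the 36 genes (horizontal axis), grouped by role, from limma on 3 arrays a group. Points are estimates and bars 95% confidence intervals, red where the Benjamini-Hochberg adjusted p was under 0.05 over all 27566 kept probe sets; 11 genes are red and all lie to the right of 0.

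Of the 3 transcription factors measured, only IRF9, the DNA-binding part of the complex that type I interferon activates, was called higher. Its signal was 388.5, 351 and 387 in LV-shNC and 439, 449 and 459 in LV-shIL-1β, without overlap. The log2 fold change was 0.26 ± 0.05 (SE, limma adjusted p = 0.0226), called in 2 of the 6 fits without an array. IRF7, which drives interferon genes once they are induced, had a log2 fold change of 0.13 (95% confidence interval -0.05 to 0.31). IRF1, a factor strongly induced by interferon-γ, had one of -0.07 (-0.18 to 0.05).

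Among the sensors of double-stranded RNA and the oligoadenylate synthetases, which make the messenger that activates RNase L, 2 of 7 genes were called higher. IFIH1, the sensor MDA5, went from 209, 246 and 237 in LV-shNC to 302, 295 and 263 in LV-shIL-1β. The highest control array and the lowest knockdown array were close, and the log2 fold change was 0.31 ± 0.08 (SE, limma adjusted p = 0.0413), called in 1 of 6 fits without an array. OAS1 had signals of 757, 793 and 810 against 944, 876 and 889, with a log2 fold change of 0.20 ± 0.05 (limma adjusted p = 0.034).

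The other 5 genes of this role did not pass. DDX60, a helicase that helps RNA sensing, had a log2 fold change of -0.09 (95% confidence interval -0.32 to 0.13), and EIF2AK2, the kinase PKR, of 0.03 (-0.15 to 0.21). The values were -0.06 (-0.16 to 0.03) for OAS3 and -0.09 (-0.21 to 0.02) for OASL, a synthetase relative that has lost the enzyme activity. For the most abundant probe set of OAS2 the value was 0.06 (-0.06 to 0.18).

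OAS2 read differently by probe set. Its second probe set had signals of 262, 241 and 266 in LV-shNC and of 318, 332 and 338 in LV-shIL-1β, with no overlap. There the log2 fold change was 0.36 ± 0.06 (SE, limma adjusted p = 0.00595), and it was called in all 6 fits without an array. The third probe set gave -0.03 ± 0.09.

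The ISG15 system moved in part. ISG15 itself had signals of 2982, 3023 and 3036 in LV-shNC and of 3105, 3114 and 3169 in LV-shIL-1β. The groups did not overlap, yet the log2 fold change was 0.05 (95% confidence interval -0.01 to 0.12) and did not pass. UBE2L6, the enzyme that carries ISG15, had -0.05 (-0.14 to 0.05), and HERC5, the main ligase that attaches it, had 0.05 (-0.08 to 0.18).

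HERC6, the neighbour and close relative of HERC5, was called higher, with 255, 259 and 274 in LV-shNC and 308, 305 and 340 in LV-shIL-1β. Its log2 fold change was 0.27 ± 0.06 (SE, limma adjusted p = 0.028). USP18, which removes ISG15 and holds back signalling at IFNAR2, had signals of 173, 195 and 178 against 214, 236 and 241. All 3 knockdown arrays were higher, with a log2 fold change of 0.34 ± 0.07 (limma adjusted p = 0.0193). HERC6 was called in 1 and USP18 in 2 of the 6 fits without an array.

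None of the 3 GTPases passed the test with limma. At an unadjusted p under 0.05, limma gave 2 of them higher, a threshold at which no share of all kept probe sets was counted. MX1, which blocks influenza and other RNA viruses, had signals of 1289, 1194 and 1151 in LV-shNC and of 1260, 1391 and 1418 in LV-shIL-1β, where LV-shIL-1β array 1 fell among the controls. Its log2 fold change was 0.16 (95% confidence interval 0.03 to 0.29, limma adjusted p = 0.125). MX2, which acts against HIV and herpesviruses, had 232, 208 and 232 against 256, 257 and 264, without overlap, and a log2 fold change of 0.22 (0.08 to 0.35, limma adjusted p = 0.0623). GBP1 had 0.04 (-0.06 to 0.15).

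Of 7 other antiviral effectors, 1 was called higher. ISG20, an exonuclease that degrades RNA, had signals of 143, 134 and 141 in LV-shNC and of 156, 176 and 170 in LV-shIL-1β. The groups did not overlap and the log2 fold change was 0.27 ± 0.07 (SE, limma adjusted p = 0.0401), called in 1 of 6 fits without an array. CMPK2, a mitochondrial nucleotide kinase next to RSAD2 in the genome, had 0.20 (95% confidence interval 0.06 to 0.35, limma adjusted p = 0.0954), while RSAD2, or viperin, had -0.09 (-0.25 to 0.06).

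By representative probe sets, BST2, or tetherin, which holds budding virus on the cell surface, was the gene with the lowest log2 fold change. Its signal was 1082, 1068 and 1001 in LV-shNC and 882, 969 and 944 in LV-shIL-1β, below without overlap. The log2 fold change of -0.17 (95% confidence interval -0.28 to -0.06) did not pass, with a limma adjusted p of 0.0697. For IFITM1, which blocks virus entry at membranes, the value was -0.03 (-0.11 to 0.06). SAMD9 had 0.09 (-0.06 to 0.24) and SAMD9L 0.14 (0.02 to 0.27, limma adjusted p = 0.161), both inhibitors of virus protein synthesis.

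Among 7 further interferon-induced genes, XAF1 was called higher. XAF1, a binding partner of the apoptosis inhibitor XIAP that promotes cell death, had signals of 452, 481 and 512 in LV-shNC and of 649, 624 and 644 in LV-shIL-1β. Every knockdown array lay above every control array. XAF1 had a log2 fold change of 0.41 ± 0.05 (SE, limma adjusted p = 0.00251), or 1.33-fold, and its other 2 probe sets were also called, at 0.36 ± 0.06 and 0.38 ± 0.10.

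The other 6 of these genes did not pass. IFI35 had a log2 fold change of 0.20 (95% confidence interval 0.02 to 0.38), IFI44L of 0.20 (0.06 to 0.35) and PARP9, an ADP-ribosyltransferase family member, of 0.14 (0.03 to 0.25), with limma adjusted p between 0.102 and 0.169. IFI44 was nearly level at 0.02 (-0.05 to 0.10). The mitochondrial protein IFI27 had signals of 5003, 5174 and 5056 in LV-shNC and of 5044, 4738 and 4788 in LV-shIL-1β, with overlap and a log2 fold change of -0.06 (-0.14 to 0.01). IFI6 had -0.10 (-0.24 to 0.03).

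Where a gene had several probe sets above the filter, they mostly gave the same call. There were 18 such genes. In 5 of them (IFIT2, IFIT3, IFIT5, ISG20 and XAF1) every probe set was called higher, in 10 none was called, and in IFIH1, OAS1 and OAS2 the probe sets disagreed. For OAS1 the second probe set gave a log2 fold change of 0.10 ± 0.06 (SE), and for IFIH1 the others gave 0.24 ± 0.14 and -0.01 ± 0.09, at signals between 18.6 and 44.7, near the filter. GBP1 had 4 probe sets, none called, of which the dimmest gave 0.76 ± 0.21 (limma adjusted p = 0.0644) at signals between 11.8 and 31.1. The second OASL probe set, also not called, gave -0.19 ± 0.05 (limma adjusted p = 0.0588), with every knockdown array below every control array. Over all 61 kept probe sets of the 36 genes, 18 were called higher and 0 lower.

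**Figure D3:**
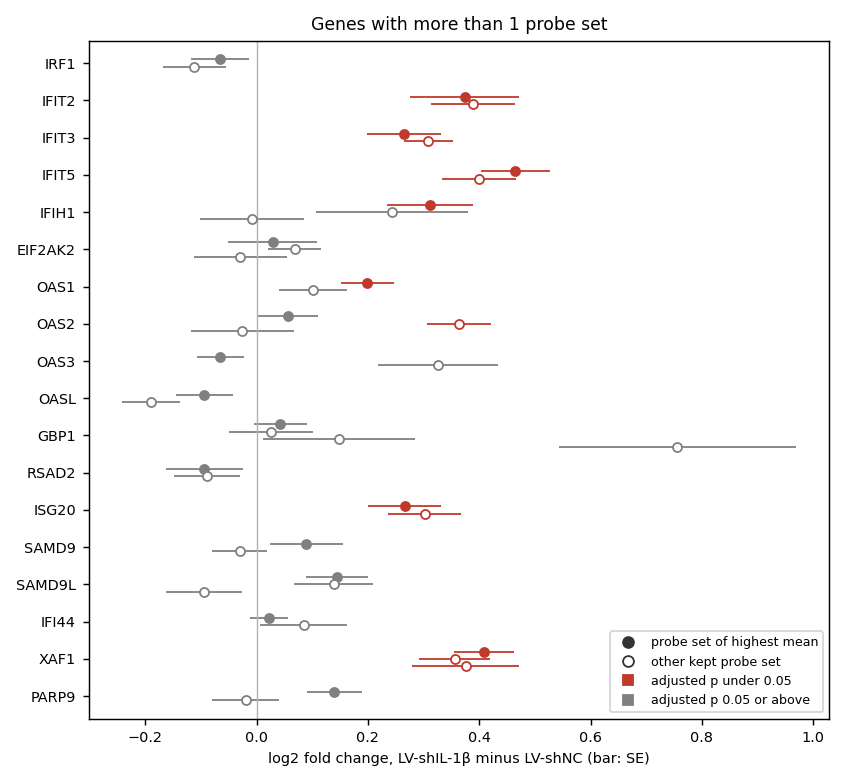
Log2 fold change of LV-shIL-1β minus LV-shNC (horizontal axis, bar is the SE from limma) for every probe set above the filter of the 18 genes with more than 1. Filled points are the probe sets of highest mean signal and open points the others, red where the adjusted p was under 0.05; the points of IFIT2, IFIT3, IFIT5, ISG20 and XAF1 are all red, whereas OAS2 has 1 red point that is not the brightest.

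Upstream of these genes, the ligands lay below the filter and several receptor chains fell. None of 18 interferon genes measured passed the filter, with signals between 1.96 and 15.1, so a change in their RNA was not tested. At these low signals IFNE lay higher in LV-shIL-1β without overlap, and IFNA4, IFNA21 and IFNK lay lower without overlap. Of 6 receptor chains, 3 were called lower and 0 higher, beside 3.37% and 3.68% of all kept probe sets. IFNGR2, a chain of the interferon-γ receptor, had signals of 523, 518 and 538 in LV-shNC and of 416, 399 and 406 in LV-shIL-1β, a log2 fold change of -0.37 ± 0.05 (SE, limma adjusted p = 0.00185), called in all 6 fits without an array.

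IL10RB, a chain shared by the receptors of interferon-λ and interleukin-10, had signals of 140, 171 and 154 against 104, 114 and 96.5. All 3 knockdown arrays were lower, at a log2 fold change of -0.57 ± 0.09 (SE, limma adjusted p = 0.00574), called in all 6 fits. IFNAR2, which binds type I interferon and USP18, had 99.8, 107 and 105 against 85.2, 79.1 and 85.8, a log2 fold change of -0.32 ± 0.07 (limma adjusted p = 0.0208). It was called in 2 of the 6 fits, and its other 2 kept probe sets gave -0.56 ± 0.07 (limma adjusted p = 0.00205) and -0.25 ± 0.10 (limma adjusted p = 0.155, with overlap). IFNAR1 had 0.12 ± 0.08, and its other 2 kept probe sets gave -0.07 ± 0.08 and -0.20 ± 0.13, with no call. IFNLR1 had 0.03 ± 0.07 and IFNGR1 -0.17 ± 0.05 (limma adjusted p = 0.084).

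The kinases and regulators between receptor and genes showed no call. JAK1, JAK2 and TYK2 had log2 fold changes between -0.07 and 0.02, and of 12 negative regulators, such as SOCS1 and PIAS1, 0 were called by limma and 0 had an unadjusted p under 0.05. By the methods' t-test, 1 kinase was lower and 1 negative regulator higher at an unadjusted p under 0.05, and 0 passed adjustment. Of 15 genes that sense nucleic acid upstream of interferon, TLR3, an endosomal receptor of double-stranded RNA, rose by 0.34 ± 0.08 (SE, limma adjusted p = 0.0367), and the kinase TBK1 by 0.25 ± 0.06 (limma adjusted p = 0.0499). TLR3 was called in 0 and TBK1 in 1 of the 6 fits without an array, and neither passed without the filter.

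**Figure D4:**
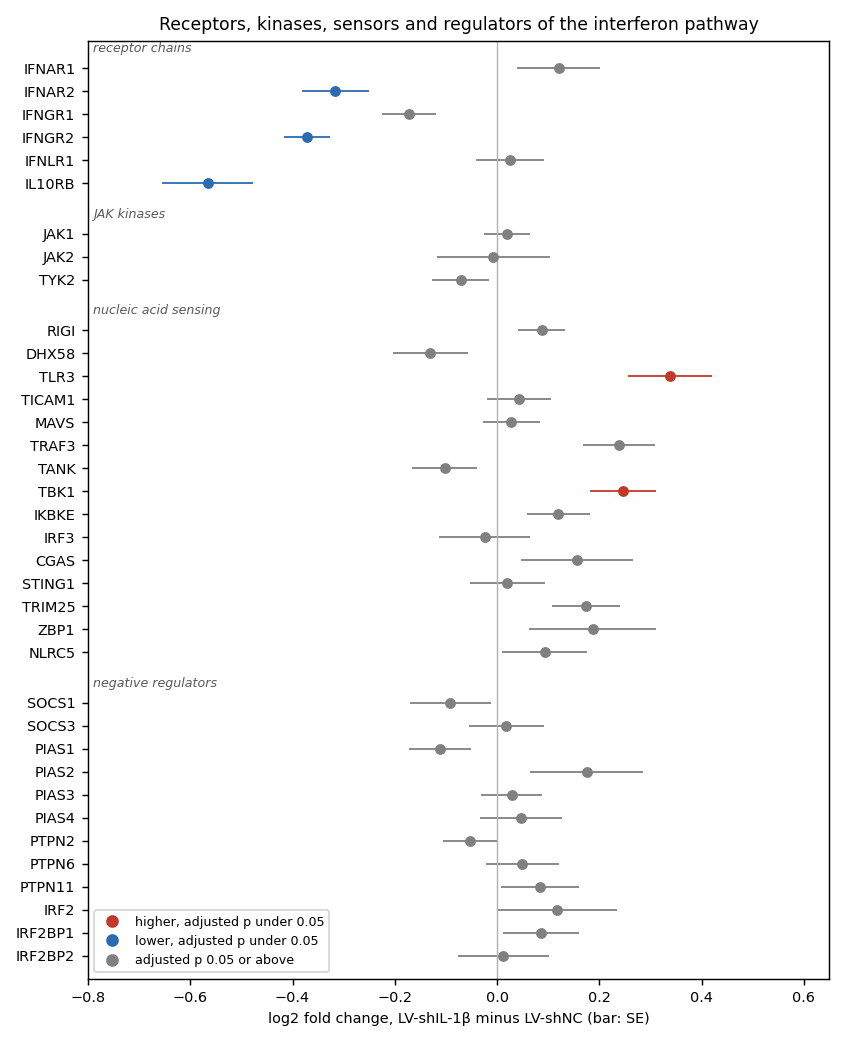
Log2 fold change of LV-shIL-1β minus LV-shNC (horizontal axis, bar is the SE from limma) for receptor chains, kinases, sensors and negative regulators of the interferon pathway above the filter. Red marks genes called higher, blue genes called lower and grey the rest; IFNAR2, IFNGR2 and IL10RB are blue, and TLR3 and TBK1 are red.

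Of 37 other interferon-induced genes above the filter, 2 were called higher and 1 lower, beside 3.68% and 3.37% of all kept probe sets, and the median log2 fold change was 0.08. At an unadjusted p under 0.05, limma gave 10 of them higher and 2 lower, and the methods' t-test gave 11 and 2. No share of all kept probe sets was counted at that threshold. CXCL10, a chemokine that attracts T cells, went from 230, 240 and 248 in LV-shNC to 281, 299.9 and 322 in LV-shIL-1β, at 0.33 ± 0.06 (SE, limma adjusted p = 0.0155). DTX3L, the partner of PARP9, rose by 0.28 ± 0.06 (limma adjusted p = 0.0181). TNFSF10, the death ligand TRAIL, fell by 0.44 on the log2 scale (SE 0.09, limma adjusted p = 0.0179). Its other kept probe sets gave -0.43 ± 0.08 (limma adjusted p = 0.0094) and -0.22 ± 0.16 (limma adjusted p = 0.478, with overlap). CXCL10, DTX3L and TNFSF10 were called in 3, 2 and 2 of the 6 fits without an array. Of 12 targets of interferon-γ and IRF1 above the filter, 0 were called by limma and 0 had an unadjusted p under 0.05, also by the methods' t-test, and their median log2 fold change was 0.01.

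Markers of leukocytes, plasmacytoid dendritic cells, fibroblasts and endothelium had signals of at most 77.3. Of 5 leukocyte genes measured, CD14, a receptor for bacterial lipopolysaccharide, was the only one above the filter, and it rose from 46.3, 51.1 and 51.0 in LV-shNC to 68.1, 75.1 and 68.0 in LV-shIL-1β. Its log2 fold change was 0.51 ± 0.08 (SE, limma adjusted p = 0.00454). The summed leukocyte signal was 81.3 to 87.8 in LV-shNC and 103 to 105 in LV-shIL-1β, while PTPRC lay at most at 2.85 and LYZ at most at 4.95. Of 4 genes of plasmacytoid dendritic cells, the main makers of type I interferon in blood, 2 passed the filter and 0 were called, with 0 at an unadjusted p under 0.05 by limma or the methods' t-test. The defining gene CLEC4C lay between 2.66 and 3.12, and the summed signal was 98.5 to 108 in LV-shNC and 95.4 to 99.5 in LV-shIL-1β.

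The summed fibroblast signal, over 5 genes of which COL1A2 and LUM were called lower, was 139 to 161 in LV-shNC and 108 to 123 in LV-shIL-1β. On the LV-shIL-1β arrays COL1A2 lay at most at 17.1 and LUM at most at 13.7, below the filter. Only the LV-shNC arrays kept these genes in the test, so the size of their fall is uncertain. The summed endothelial signal was 62.0 to 65.4 in LV-shNC and 60.5 to 62.1 in LV-shIL-1β, with KDR at most at 3.53. Among 7 squamous genes, KRT5, KRT14 and KRT16 were called lower, by 0.32, 0.35 and 0.57 on the log2 scale, and 0 were called higher. Of all kept probe sets, 3.37% were called lower and 3.68% higher. The part of the moving markers in the rise of the interferon-stimulated genes was not tested.

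The genes next to the IFIT and MX genes were examined after the values were seen, because members of these families lie side by side. IFIT2, IFIT3, IFIT1 and IFIT5 are neighbours on chromosome 10, and the nearest measured genes on either side, LIPA (-0.05 ± 0.04, log2 fold change ± SE) and PANK1 (0.08 ± 0.08), were not called. Of 9 kept neighbours of the IFIT genes, 2 were called higher and 0 lower, beside 3.68% and 3.37% of all kept probe sets. The median log2 fold change of the 9 was 0.05. CH25H, an enzyme that makes 25-hydroxycholesterol and is itself interferon-induced, had 1.06 ± 0.14 (limma adjusted p = 0.00268), or 0.50 with a pseudocount of 16, since its control signal lay below the filter. CH25H stayed in the test through its LV-shIL-1β signal and dropped out under the stricter filter, so its place in the count of 2 is uncertain. STAMBPL1 had 0.28 ± 0.07 (limma adjusted p = 0.0426) and was called in 1 of the 6 fits without an array.

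Around MX2 and MX1 on chromosome 21 some neighbours fell. Of 6 kept neighbours, 0 were called higher and 2 lower, beside 3.68% and 3.37% of all kept probe sets. Of the 6, 5 had a log2 fold change below 0 (median -0.26). BACE2 had -0.58 ± 0.05 (SE, limma adjusted p = 2.54e-04) and RIPK4, a kinase of keratinocyte differentiation, -0.47 ± 0.06 (limma adjusted p = 0.00185), both called in all 6 fits without an array. Around HERC6 and HERC5 on chromosome 4, 0 of 4 kept neighbours were called, with a median of -0.02.

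**Figure D5:**
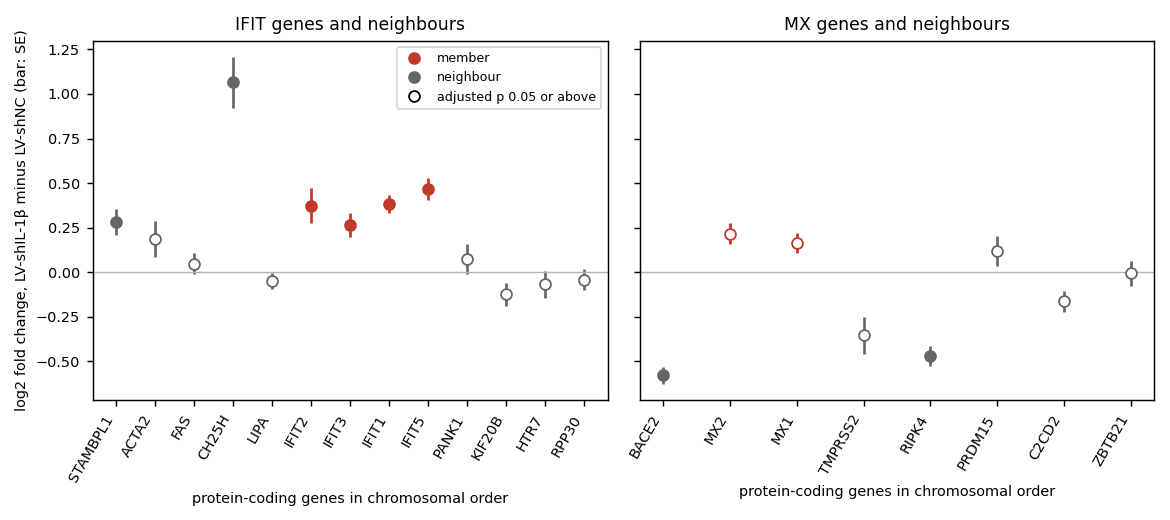
Log2 fold change of LV-shIL-1β minus LV-shNC (vertical axis, bar is the SE from limma) for the IFIT genes (left) and the MX genes (right) in red, and for the protein-coding genes beside them in grey, in chromosomal order. Open points had an adjusted p of 0.05 or above; all 4 IFIT genes are filled, both MX genes are open, and BACE2 and RIPK4 beside them are filled and lie below 0.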

How the data were processed

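Intensities deposited by the authors, on a linear scale with 1 value per probe set and array, were used as given. The submitters' processing notes name MAS5. Its version and settings are not given in sources used here, so the effect of normalization on small differences is unknown. The groups came from the labels, with 3 arrays each. Of the columns with values per sample, 0 were left unused.

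Signals were put on the log2 scale. The 62 control probe sets were left out. Probe sets above the median of all values (18.6) on at least 3 of 6 arrays were kept, which left 27566. LV-shIL-1β was compared with LV-shNC with limma 3.58.1 (lmFit, eBayes with trend, two-sided) in R 4.3.3. The p-values were adjusted by Benjamini-Hochberg over all kept probe sets, with a threshold of 0.05. The script was tested on simulated data. An exact permutation test of 3 against 3 cannot go below p = 0.1, so none is given.

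Gene names came from the platform annotation (41097 probe sets with 1 symbol, 1801 with several, 11777 with none), and only single-symbol probe sets were named. Of these, 41043 were found in a RefSeq gene table, and 0 symbols changed. Probe sets can bind near relatives, so IFIT, OAS and GBP family members may share signal. Figures were drawn with matplotlib 3.10.9.

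The 36 genes, all named, and the pathway and marker lists, of which called genes, receptor chains and defining markers were named, were chosen with earlier results of these data known. Alternatives were another scaling (median centring, quantile), a pseudocount of 16, no filter or a stricter one, the methods' t-test, array weights, blocking on the array number, another way to choose the probe set, and each array left out.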

Additional observations from a re-analysis of the deposited data

How the results depend on the processing

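With 3 arrays a group the number of calls varied with the fit, and probe sets below the filter were not tested. The number of the 36 genes called higher, 11 as reported, was 6 with no filter on low signals, where more probe sets were tested, 0 with the methods' t-test after Benjamini-Hochberg adjustment (15 at an unadjusted p under 0.05), and between 3 and 8 with 1 array left out. It lay between 9 and 14 under the other settings apart from the block on the array number, given last, and the number called lower was 0 under every setting. The median log2 fold change of 0.13 was 0.18 with the probe set of largest variance and between 0.12 and 0.15 with 1 array left out. No called gene changed sign under any of these settings, whereas EIF2AK2, which was not called, did under 3. Single-gene values were followed for 56 results, which included called probe sets and genes beyond the 36, and IL1B. Under the alternatives, 638 values kept their side of the threshold, 140 no longer passed and 5 newly passed. The 638 include results that were not called as reported, and only a called result can stop passing.

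Of all kept probe sets, 1943 were called as reported, 267 with the methods' t-test and between 696 and 1808 with 1 array left out. Of the pathway genes, 4 were called higher as reported, 8 with median centring, 2 with no filter, 1 with the t-test, 10 with array weights and between 0 and 7 with 1 array left out. In these, 4 were called lower as reported, 1 with the t-test and between 2 and 5 with 1 array left out. The causes were not tested.

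The array numbers did not pair the samples: same-numbered arrays had residual correlations of -0.39, -0.11 and -0.21. In a fit that took the replicate number as a block, 3 of the 36 genes were called higher (IFIT1, IFIT5 and XAF1), 0 pathway genes higher and 2 lower, and 568 probe sets in all.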
